A study of Drosophila melanogaster with 4 samples.

Results

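The genes described here are the spermatogenesis genes of the testis in adult male Drosophila melanogaster. They were chosen by name and not by a cut on measured values, but with earlier results of these data known. The list holds 55 genes of meiotic arrest, meiotic entry, sperm structure and late spermatid differentiation. Of these, 45 had a probe set that the array's platform annotation gives to that gene alone, out of 11982 genes named in this way on the array. Where several probe sets named a gene, the one with the highest 4-array mean stood for it.

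The study exposed young adult males of the wild-type Canton-S strain, 1 to 2 days old, to solvent or aldehyde vapour, in mesh-covered vials set inside an exposure bottle. There were 4 groups of 1 array each: males kept for 24 h in benzene, in toluene or in formaldehyde vapour, and males that were not exposed, called the control. All 4 groups share strain, genotype, sex and age. The labels state neither doses nor how many flies went into each RNA sample, and they name flies and no dissected tissue.

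Sperm are made in the testis from germ cells that grow as spermatocytes, pass through meiosis and then elongate as spermatids. In fly spermatocytes a testis-specific form of a chromatin complex (tMAC) and testis-specific versions of the general TAF transcription factors switch on the genes for sperm parts, and males that lack them stop before meiosis, hence the name meiotic arrest genes. Most of the transcripts for sperm parts are made before meiosis and stored, whereas the comet and cup genes are known for transcription after it, with their RNA gathered at the ends of the growing tails.

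The values are log2 probe set values as deposited, and a log2 ratio is the value on the exposed array minus the value on the control array. Detection in a comparison required that at least 1 of the 2 values was no lower than its array's median over all non-control probe sets, which was 6.42 with benzene, 6.44 with toluene, 6.45 with formaldehyde and 6.46 in the control. Each group has 1 array and hence no replicate check, so differences are described by size with no test. The exposure cannot be told apart from differences between the RNA samples or hybridisations. The control array is shared by the 3 comparisons with it. In RNA from flies, fewer germ cells and less RNA per germ cell cannot be told apart either.

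Markers of sex and of RNA quality were read on the same arrays. In the ovary and yolk list of 13 measured genes, Yp1, Yp2, osk and Cp16 were at or below background on all 4 arrays, background being the 95th percentile of 17 tag probe sets with no fly target. Yp3 and grk were detected, and the log2 of that list's summed signal was 9.85 with benzene, 9.85 with toluene and 9.80 with formaldehyde, against 9.77 in the control. Of 5 genes listed for male dosage compensation only 1, msl-2, was measured. It had log2 ratios of -0.19, 0.16 and 0.07 in that order. The 3' and 5' probe sets of the actin control differed by 1.09 with benzene, 1.16 with toluene and 0.83 with formaldehyde, against 1.12 in the control, and those of GAPDH by 0.93, 0.93 and 0.95, against 0.99 in the control. The formaldehyde array was also higher than the control array for the actin and 18S ribosomal control probe sets, by 0.76 and 0.50. The 18S ratios were 0.16 with benzene and 0.11 with toluene, and those of actin -0.06 and -0.05. Control probe sets for Bacillus transcripts had median ratios of 0.16 with benzene, 0.06 with toluene and 0.13 with formaldehyde. Those for E. coli transcripts were at 0.05, -0.10 and -0.05. The part of these values in the sperm gene ratios was not tested.

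The detected sperm genes were lower, by small and similar amounts, on each exposed array than on the control array. The median log2 ratio of the detected genes was -0.24 with benzene (37 genes), -0.16 with toluene (36 genes) and -0.30 with formaldehyde (36 genes). On a linear scale these medians are differences of -15.1%, -10.2% and -18.9%. The medians over all detected genes of the array were -0.02, 0.01 and 0.01 in the same order.

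Below the control lay 36 of 37 detected sperm genes with benzene, where 57.1% of all 8134 detected genes did. With toluene it was 36 of 36, against 48.4% of 8140 genes, and with formaldehyde 36 of 36, against 47.7% of 8165 genes. The one exception was nht with benzene, described below.

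None of the 45 genes differed by 2-fold from the control on any exposed array. Among all detected genes, 0.0984% were 2-fold or more lower and 0.332% higher with benzene. With toluene these shares were 0.0369% lower and 0.246% higher, and with formaldehyde 0.0367% lower and 1.08% higher. By the smaller rule of a log2 ratio of -0.25 or below, 14 of 37 sperm genes passed with benzene, against 11.2% of all genes. With toluene 2 of 36 passed (fzo and gudu), against 3.92% of all genes, a share close to that background. With formaldehyde 27 of 36 passed, against 17.7%. The count for benzene depends on how the arrays are scaled: it was 9 under quantile scaling and 7 when each array was centred on its median. The count for toluene was 5 under quantile scaling and 1 with a stricter filter on dim genes.

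The sperm genes lay in the lower tail of each array's ratios but not at its end. With benzene 12.8% of all detected genes had a ratio at or below the median of the sperm genes, with toluene 14.9% and with formaldehyde 12.5%. The interquartile range of their log2 ratios was 0.068 with benzene, 0.068 with toluene and 0.106 with formaldehyde, where that of all detected genes was 0.207, 0.201 and 0.295. No test of this difference was made.

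**Figure D1:**
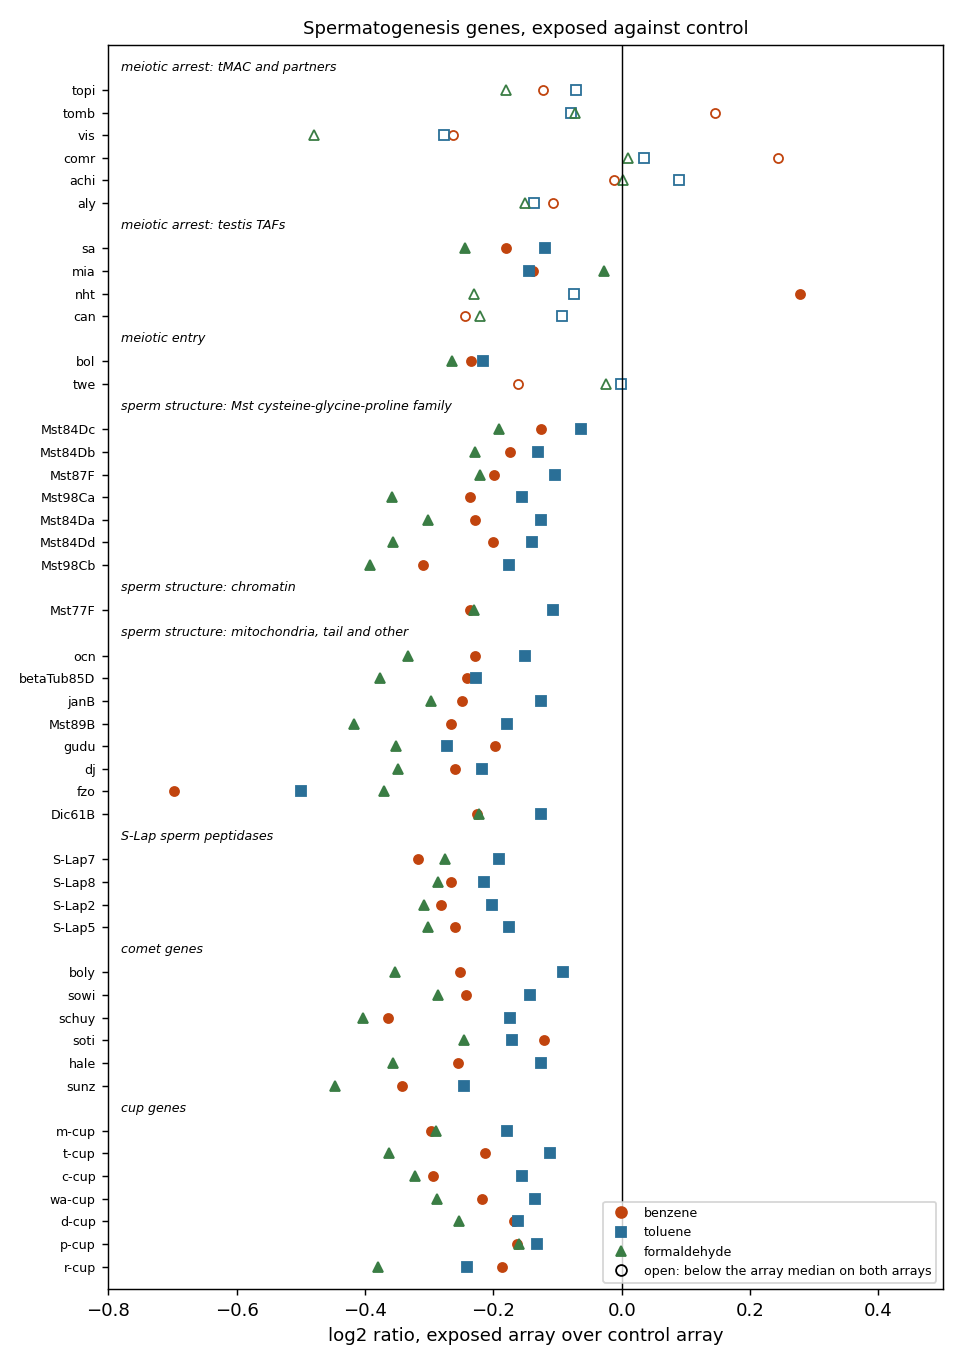
Log2 ratio of each of the 45 measured spermatogenesis genes (rows, by role, highest 4-array mean on top within a role) for benzene (circles), toluene (squares) and formaldehyde (triangles) over control; open marks are genes below the array median on both arrays. Filled marks lie left of 0 except nht with benzene, at 0.28, and fzo with benzene lies farthest left, at -0.70.

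The meiotic arrest regulators were dim on these arrays, and most of them were not detected. The 6 genes of tMAC and its partners were below the array median on all 4 arrays. They are aly, comr, topi and tomb, which encode tMAC subunits, and the neighbouring gene pair achi and vis, which encode homeodomain proteins that work with it. Their highest values in any group were those of topi, at 6.24 with benzene, 6.29 with toluene, 6.18 with formaldehyde and 6.36 in the control. aly lay at or below background on all 4 arrays, and so did twe, the Cdc25 phosphatase gene of meiosis. achi lay there on 2 arrays and comr on 1. can, which encodes the testis form of TAF5, was above background and below the array median throughout, and so were topi, tomb and vis. No direction is read from these genes, whose log2 ratios ran from -0.48 (vis with formaldehyde) to 0.24 (comr with benzene). aly, topi, vis, can and twe were below the control on all 3 exposed arrays. comr was above it on all 3, and tomb and achi differed between exposures. A probe set that achi and vis share, and which therefore names neither, was detected, at 7.12 with benzene, 7.11 with toluene and 7.22 with formaldehyde, against 7.47 in the control.

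Of the testis TAF genes, sa and mia, for the testis forms of TAF8 and TAF6, were detected on all 4 arrays. sa stood at 6.97 with benzene, 7.03 with toluene and 6.91 with formaldehyde, against 7.15 in the control. mia stood at 6.64 with benzene, 6.63 with toluene and 6.75 with formaldehyde, against 6.78 in the control. Both were highest in the control, and mia with formaldehyde (-0.03) was the detected sperm gene nearest to the control. nht, which encodes the testis form of TAF4, stood at 6.66 with benzene, 6.31 with toluene and 6.16 with formaldehyde, against 6.38 in the control. It passed the filter on the benzene array alone, where it was high, so its ratio of 0.28 there is a description of a gene at the limit of the filter.

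bol, which encodes the RNA-binding protein Boule that meiotic entry depends on, stood at 10.25 with benzene, 10.27 with toluene and 10.22 with formaldehyde, against 10.48 in the control. The 3 exposed arrays were within 0.05 of each other and below the control. A further probe set of bol went the other way, at 7.19 with benzene, 7.22 with toluene and 7.41 with formaldehyde, against 7.03 in the control, and its remaining probe set was at 3.62 to 3.71 on all 4 arrays. Direction for bol thus depends on the probe set, and the mean over its probe sets gave 0.06 for formaldehyde.

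Genes for the cysteine-glycine-proline proteins of the sperm tail, the Mst84D cluster, Mst87F, Mst98Ca and Mst98Cb, all gave probe set values above 11 on every array. Mst84Dc stood at 13.04 with benzene, 13.10 with toluene and 12.98 with formaldehyde, against 13.17 in the control. Mst84Db stood at 12.81, 12.85 and 12.75 in the same order of exposures, against 12.98 in the control. These had small ratios, -0.13, -0.06 and -0.19 for Mst84Dc and -0.17, -0.13 and -0.23 for Mst84Db. Mst87F was similar, at 12.65 with benzene, 12.75 with toluene and 12.63 with formaldehyde, against 12.85 in the control.

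Differences with formaldehyde were larger for the rest of that family. Mst84Dd stood at 12.20 with benzene, 12.26 with toluene and 12.04 with formaldehyde, against 12.40 in the control. Mst98Cb stood at 11.25, 11.39 and 11.17 in that order, against 11.56 in the control, with ratios of -0.31, -0.18 and -0.39. Mst84Da had ratios of -0.23, -0.13 and -0.30, and Mst98Ca of -0.24, -0.16 and -0.36. For all 7 genes the control array was the highest and the formaldehyde array the lowest, against 32.9% and 31.9% of all genes. The family medians were -0.20 with benzene, -0.13 with toluene and -0.30 with formaldehyde. Mst84Da, Mst84Db, Mst84Dc and Mst84Dd are next to one another in RefSeq's annotation, and so are Mst98Ca and Mst98Cb, whose sequences are alike enough that probe sets may read both.

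For sperm chromatin, in which histones are replaced by small basic proteins, Mst77F (a linker histone-like protein) was measured. It stood at 12.46 with benzene, 12.59 with toluene and 12.47 with formaldehyde, against 12.70 in the control, so the benzene and formaldehyde arrays were level and toluene was nearer to the control. Mst35Ba and Mst35Bb, the protamine genes, had no probe set under these names and are listed by the platform as ProtA and ProtB. ProtA stood at 10.09 with benzene, 10.13 with toluene and 9.98 with formaldehyde, against 10.29 in the control. ProtB stood at 9.75, 9.84 and 9.70 in that order, against 9.98 in the control. Both had their highest value in the control, like Mst77F. They are outside the count of 45 genes, and the near-identical pair may share signal. A brighter probe set that names both stood at 11.90 with benzene, 11.95 with toluene and 11.79 with formaldehyde, against 12.13 in the control.

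Among genes of the sperm mitochondria, tail and other parts, betaTub85D encodes the testis tubulin of the meiotic spindle and tail axoneme. It stood at 12.09 with benzene, 12.10 with toluene and 11.95 with formaldehyde, against 12.33 in the control. ocn, a gene of the janus family of testis proteins, stood at 12.99, 13.06 and 12.88 in that order, against 13.22 in the control, and its neighbour janB had ratios of -0.25, -0.12 and -0.30. dj, whose product lies along the sperm tail mitochondria, had ratios of -0.26, -0.22 and -0.35.

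fzo, the mitofusin gene for fusion of spermatid mitochondria, had another order of arrays. It stood at 6.76 with benzene, 6.96 with toluene and 7.08 with formaldehyde, against 7.46 in the control. The ratios of -0.70, -0.50 and -0.37 make it the lowest sperm gene with benzene and with toluene, while with formaldehyde it lay within the range of the others. It was also the detected sperm gene with the widest range over the 4 arrays. Its probe set was above the array median on all 4 arrays but among the 2 dimmest detected of its role group.

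Dic61B, an axonemal dynein intermediate chain gene, stood at 6.56 with benzene, 6.65 with toluene and 6.56 with formaldehyde, against 6.78 in the control. gudu, which encodes an armadillo repeat protein needed for spermatogenesis, stood at 8.73, 8.66 and 8.58 in that order, against 8.93 in the control, with toluene lower than benzene. Mst89B stood at 9.10, 9.19 and 8.95, against 9.36 in the control, and its formaldehyde ratio of -0.42 was the lowest after sunz. The 8 genes of this group had medians of -0.24 with benzene, -0.20 with toluene and -0.35 with formaldehyde.

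The S-Lap genes encode leucyl aminopeptidase-like proteins that are very abundant in fly sperm, and 4 of the 7 listed were measured. S-Lap7 stood at 12.24 with benzene, 12.36 with toluene and 12.28 with formaldehyde, against 12.55 in the control. S-Lap8 stood at 11.88, 11.93 and 11.86 in that order, against 12.15 in the control. S-Lap2 stood at 11.37, 11.45 and 11.34, against 11.65 in the control. Their ratios lay close together, from -0.32 to -0.26 for benzene, from -0.21 to -0.18 for toluene and from -0.31 to -0.28 for formaldehyde. S-Lap5 completed the group at 9.03 with benzene, 9.11 with toluene and 8.99 with formaldehyde, against 9.29 in the control. In this family benzene and formaldehyde were nearly level, with medians of -0.27 and -0.29. The S-Lap genes resemble each other, so their probe sets may share signal.

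**Figure D2:**
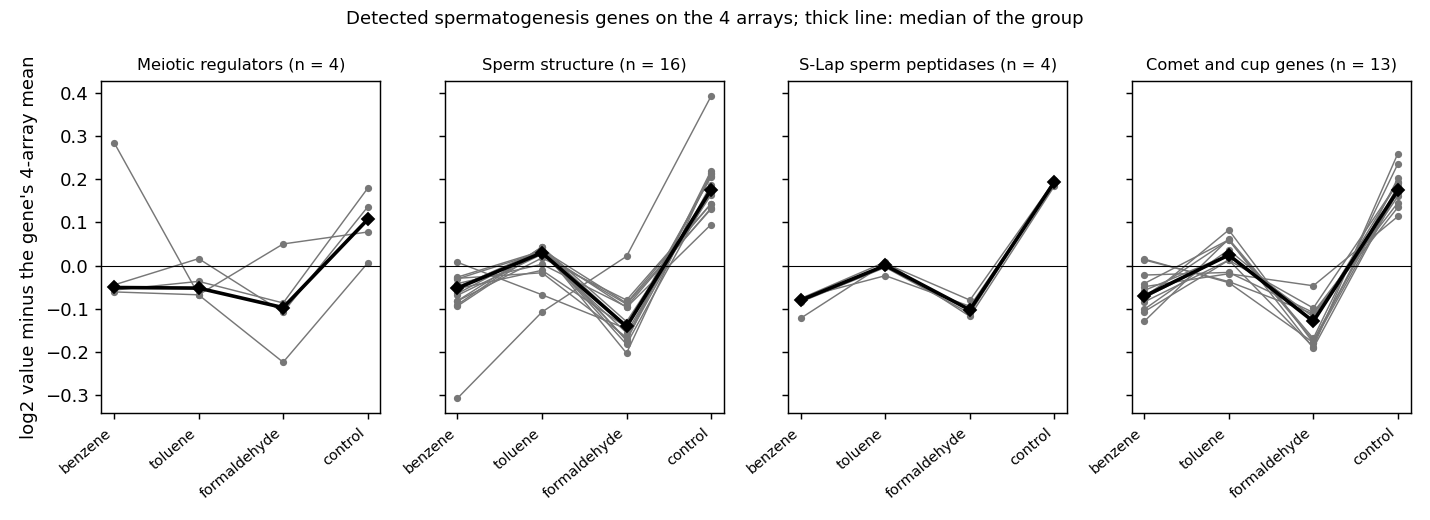
Log2 value of each detected spermatogenesis gene minus that gene's mean over the 4 arrays (thin lines) for the benzene, toluene, formaldehyde and control arrays, in 4 role groups of 4, 16, 4 and 13 genes; thick lines are group medians. All lines of the last 3 groups peak on the control array, and in the first group nht peaks on the benzene array.

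The comet genes are late spermatid genes, and 6 of 9 were measured. sunz stood at 8.40 with benzene, 8.50 with toluene and 8.29 with formaldehyde, against 8.74 in the control. It was among the 3 lowest ratios for every exposure, at -0.34, -0.25 and -0.45. schuy stood at 9.88, 10.07 and 9.84 in that order, against 10.25 in the control, and its neighbour hale at 9.02, 9.15 and 8.92, against 9.28 in the control.

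soti, which encodes an inhibitor of the ubiquitin ligase that acts in caspase activation as sperm separate, stood at 9.29 with benzene, 9.24 with toluene and 9.17 with formaldehyde, against 9.41 in the control. Its ratio of -0.12 was the smallest difference below 0 among the detected genes with benzene. boly stood at 10.49, 10.65 and 10.39, against 10.74 in the control, a toluene ratio of -0.09. sowi stood at 10.21, 10.31 and 10.16, against 10.45 in the control. The comet medians were -0.25 with benzene, -0.16 with toluene and -0.35 with formaldehyde. All 6 were lowest on the formaldehyde array, against 31.9% of all genes.

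swif and cola share their probe sets with each other. The brighter shared probe set stood at 9.76 with benzene, 9.86 with toluene and 9.56 with formaldehyde, against 10.02 in the control, and the dimmer one at 7.87, 8.07 and 7.82, against 8.24 in the control. Both were highest in the control and lowest with formaldehyde, as the 6 comet genes measured alone were. RefSeq places whip, cola, swif and boly side by side.

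All 7 cup genes, another set of late spermatid genes, were measured. m-cup stood at 9.38 with benzene, 9.50 with toluene and 9.39 with formaldehyde, against 9.68 in the control. t-cup stood at 9.39, 9.50 and 9.24 in that order, against 9.61 in the control. r-cup stood at 7.70, 7.64 and 7.50, against 7.88 in the control. p-cup had the smallest spread over exposures, at 7.86, 7.89 and 7.87, against 8.03 in the control, and the smallest formaldehyde difference of the group (-0.16). The ratios of wa-cup, c-cup and d-cup lay within the range of these, and the cup medians were -0.21 with benzene, -0.16 with toluene and -0.29 with formaldehyde. A dimmer probe set of r-cup, below the array median, had ratios of -0.53, -0.16 and -0.38, and the remaining one was below background on all 4 arrays.

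The remaining listed genes were not measured alone. loopin-1, S-Lap1, S-Lap3, S-Lap4 and whip had no probe set under these names. rye, the testis TAF12 gene, is listed by the platform as Taf12L, whose brighter probe set stood at 7.62 with benzene, 7.52 with toluene and 7.54 with formaldehyde, against 7.73 in the control. With Mst35Ba, Mst35Bb, swif and cola these make up the 10 listed genes outside the 45.

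Across the 37 sperm genes that reached the array median on at least 1 array, 36 had their highest value in the control, where 32.9% of all 8250 such genes did. This is a statement on the position of 1 array. The lowest value fell on the formaldehyde array for 30 of the 37 (nht, detected on the benzene array alone, among them), against 31.9% of all genes. It fell on the benzene array for 6 (fzo, Mst77F, Dic61B, S-Lap7, m-cup and p-cup), against 26.2%, and on the toluene array for mia alone, against 12.4%. This order was not particular to sperm genes. Of 27 genes of seminal fluid and the accessory gland, described below, 22 were highest in the control and 22 lowest with formaldehyde.

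The exposed arrays can be compared with each other without the control. Formaldehyde was lower than toluene for 34 of 36 detected sperm genes, with a median log2 ratio of -0.13, where 55.6% of all detected genes were below 0 and the median was -0.02. The 2 genes on the other side were mia and fzo. Formaldehyde was lower than benzene for 30 of 37 genes, with a median of -0.07, where 45.3% of all genes were below 0 and the median was 0.02. Toluene against benzene, which differ by a methyl group, gave 5 of 37 genes below 0, against 34.4% of all genes, and a median of 0.08, where the median of all genes was 0.04. The counts below benzene include nht, at -0.51 with formaldehyde and -0.35 with toluene. It passed the filter through its benzene value alone, so its direction there follows from the filter and is not read. The times are matched at 24 h and the doses are not known. With 1 array each no interval of these differences can be given, so small values here do not show that the vapours act alike.

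The medians of other genes of like brightness were near 0, while single genes among them fell on both sides of 0. In the band of 4-array means from 12 to 15, the 10 sperm genes had medians of -0.23 with benzene, -0.13 with toluene and -0.29 with formaldehyde, and the 297 other genes -0.01, 0.01 and 0.01. In the band from 8 to 10, the 11 sperm genes were at -0.26, -0.17 and -0.32 and the 3437 other genes at -0.02, 0.00 and 0.01. In the band from 6 to 8, the sperm genes were at -0.18, -0.15 and -0.24 and the other genes at -0.03, 0.00 and 0.02. There 7 of 8 sperm genes were below 0 with benzene, against 58.3% of the others. Below 0 in the band from 12 to 15 with formaldehyde were 10 of 10 sperm genes and 46.5% of the others.

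**Figure D3:**
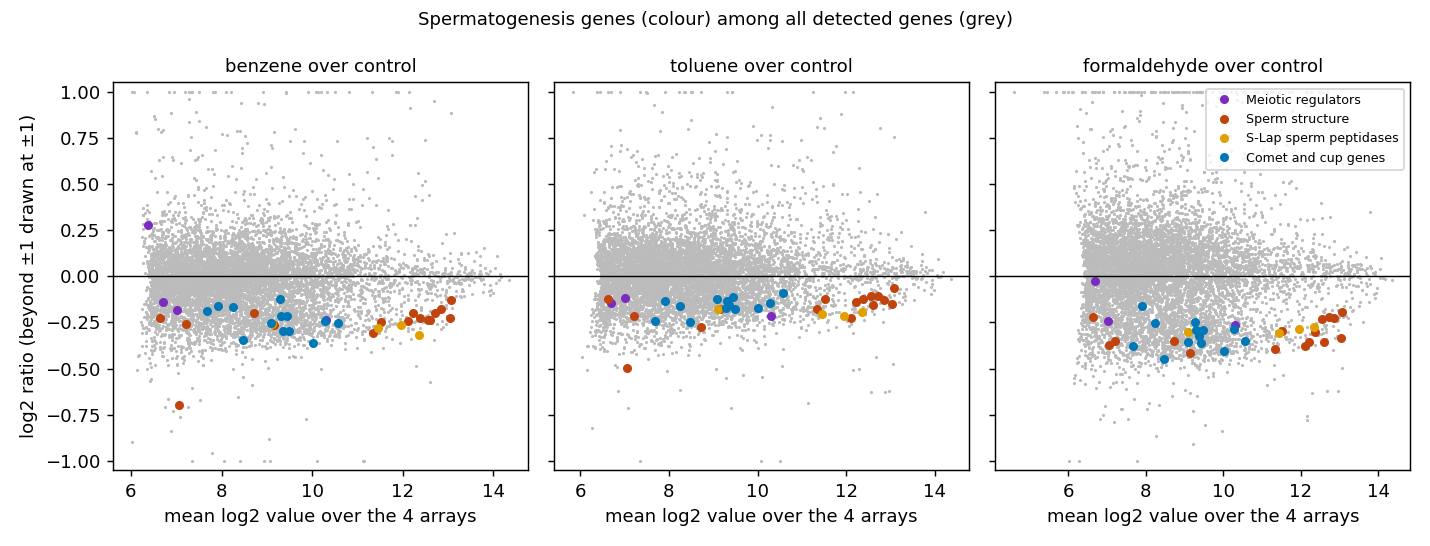
Log2 ratio over control against the mean log2 value over the 4 arrays for all detected genes (grey) and for detected spermatogenesis genes by role (colour), 1 panel per exposure; ratios beyond 1 in size are drawn at the edge. Most sperm genes lie on the lower side of the grey cloud, with medians of -0.24, -0.16 and -0.30, and nht with benzene lies above 0, at 0.28.

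The summed signal gives the same order of arrays. On the linear scale the 45 genes made up 1.27% of the summed signal of all named genes with benzene, 1.31% with toluene and 1.20% with formaldehyde, against 1.47% in the control. The 7 cysteine-glycine-proline genes alone made up 0.606%, 0.625% and 0.567%, against 0.685% in the control. These are shares of array signal, which depends on the probes, and not of RNA molecules.

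Other genes of spermatogenesis were listed apart from these by their known function. They too were listed with earlier results of these data known and read on the same 4 arrays, so they are not an independent check. Of 37 names of late spermatogenesis, 29 were measured and 23 detected. All 23 were below the control for each exposure, where 57.1% of all detected genes were with benzene, 48.4% with toluene and 47.7% with formaldehyde. Their medians were -0.27 with benzene, -0.18 with toluene and -0.38 with formaldehyde. The gene ms(2)34Fe, named for male sterility, and knon, which encodes a testis relative of an ATP synthase subunit, had the largest benzene ratios, at -0.40 and -0.38. knon and tHMG1, a testis HMG box gene, led for toluene, at -0.34 and -0.28. With formaldehyde scpr-C was at -0.43 and knon at -0.42. The giant Y-linked dynein genes kl-2, kl-3 and kl-5 were at or below background on all 4 arrays.

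Earlier germ cells and somatic cells of the testis were poorly covered. Of 12 measured early germ line genes, 3 were detected and 4 (bam, vas, piwi and tej) were at or below background on all 4 arrays. bgcn, a partner of the differentiation factor bam, stood at 7.05 with benzene, 7.09 with toluene and 7.06 with formaldehyde, against 7.16 in the control. The spermatocyte RNA-binding gene Rbp4 stood at 7.82, 7.68 and 7.57 in that order, against 7.87 in the control. chinmo, a stem cell gene that other tissues also use, had log2 ratios of -0.31, -0.09 and -0.05. The 5 detected partners of tMAC that other tissues share had medians of -0.02 with benzene, -0.06 with toluene and 0.02 with formaldehyde. Of 6 measured somatic genes, zfh1 and eya were detected. zfh1, which encodes a transcription factor of cyst stem cells that other tissues also use, stood at 7.76, 7.72 and 8.15, against 7.47 in the control, and eya had ratios of 0.02, -0.09 and -0.09.

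Genes of another male organ were also mostly below the control. The 27 measured genes of seminal fluid and the accessory gland, all detected, had medians of -0.08 with benzene, -0.11 with toluene and -0.19 with formaldehyde. Of these, 25, 24 and 24 were below the control in that order, against 57.1%, 48.4% and 47.7% of all detected genes. Their summed signal was 2.39% of all named genes with benzene, 2.31% with toluene and 2.20% with formaldehyde, against 2.47% in the control. The difference between these medians and those of the sperm genes was not tested.

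**Figure D4:**
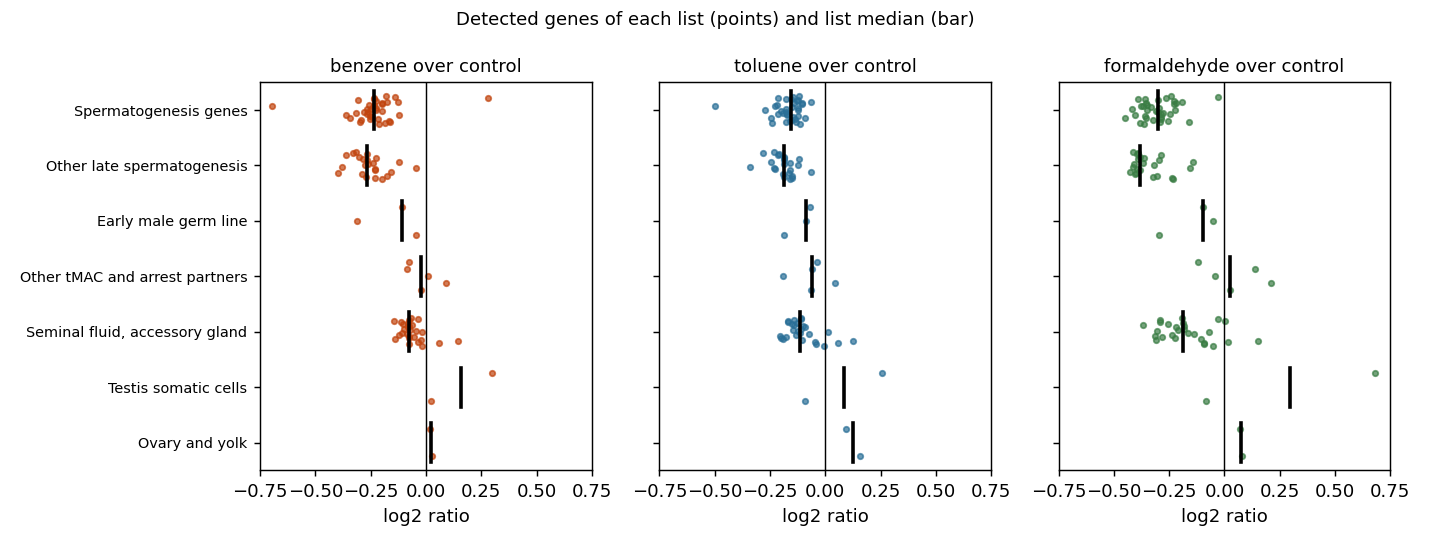
Log2 ratio over control of detected genes (points) in the spermatogenesis genes and in 6 further lists, with the list median (bar), 1 panel per exposure. The sperm genes and the other late spermatogenesis genes have the lowest medians in every panel, and the ovary, yolk and testis somatic lists rest on 2 detected genes each.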

How the data were processed

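The authors deposited 1 table of log2 values for 18952 probe sets on 4 arrays, 1 per group, ranging from 2.43 to 14.48. RMA, MAS5 and Affymetrix Expression Console 1.1 are listed, without roles, per the submitters' processing notes, so the method behind the log2 values is not given in the sources used here. Labelling started from 300 ng of total RNA, per the labels' protocols. Groups came from sample titles.

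Of 18769 non-control probe sets, 13647 had 1 symbol in the platform annotation, 402 several and 4720 none. Symbols were matched exactly. RefSeq's Release 6 gene table gave current symbols and neighbours only, since no build is named. No sequences are shown. Ratios are differences of the deposited log2 values, with no test, computed in Python 3.11.15 with pandas 2.3.3 and numpy 2.4.6 and tested on simulated data. The number of arrays limits the precision. Genes called are those at or past 2-fold, or at or past 0.25 in log2. Alternatives were scaling, the filter on dim genes, probe set choice and membership.

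Genes with values on every array were named by rule: the 2 brightest and 2 dimmest detected of each role group, the 3 lowest and 3 highest ratios per exposure, and from other lists the 2 largest ratios per exposure; dj, janB, can and topi, and genes at background, were named after their values were seen. The genes and lists were chosen with earlier results of these data known. ProtA, ProtB, Taf12L, the shared probe sets and the further probe sets were added to account for every gene.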

Additional observations from a re-analysis of the deposited data

Results flagged for a closer look

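A further probe set of bol, which the comparisons do not use because another probe set of the gene is brighter, was higher with formaldehyde than in the control, with a log2 ratio of 0.37, while the probe set used was lower (-0.27). The cause of the disagreement was not tested.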

How the results depend on the processing

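No paired analysis was possible because each group has 1 array and the groups share 1 replicate number. Over 7 alternatives the sperm gene medians ranged from -0.24 to -0.20 with benzene, from -0.17 to -0.14 with toluene and from -0.32 to -0.29 with formaldehyde. No gene passed 2-fold under any of them. The count of genes at a log2 ratio of -0.25 or below moved by over 1.5 times. With benzene it was 14 as deposited, 9 under quantile scaling, 7 with each array centred on its median and 9 without genes that have a near-identical copy, where fewer genes were counted. With toluene it was 2 as deposited, 5 under quantile scaling and 1 with the filter at the 75th percentile. Only bol with formaldehyde changed sign, at 0.06 over the mean of its probe sets. The alternative with ProtA, ProtB and Taf12L and the brightness bands were added after the data were seen. With 1 array a group, values that moved by under 0.05 are taken as unmoved, a limit set by hand. The tMAC genes were below the array median on all 4 arrays, and aly also at background, which limits what can be read from them.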
